A study of Mus musculus with 9 samples.

Results

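Claudins are the membrane proteins that seal the space between neighbouring epithelial cells, and their RNA was followed here in mouse mammary cells together with that of their main tight junction partners. The 9 genes described, of 55228 in the count table, were chosen by name and by what their proteins do, with earlier results of these data known. They are 6 claudins (*Cldn1*, *Cldn3*, *Cldn4*, *Cldn6*, *Cldn7* and *Cldn12*), occludin (*Ocln*), the scaffold ZO-1 (*Tjp1*) and junctional adhesion molecule A (*F11r*). After a filter on low counts 15253 genes were tested, among them 8 of the 9, and *Cldn6* was too low to test.

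RNA-seq was done on 9 cultures of undifferentiated HC11 cells, a mouse mammary epithelial line, with 3 cultures in each of 3 groups. *WT* is the parental line, and *KD1* and *KD2* are lines in which *Vangl2*, a core gene of planar cell polarity, was targeted with Cas9 and a different guide for each line. GEO gives their genotypes as Vangl2 knockout 1 and 2, whereas the study calls them *KD*. The cells of all 3 groups were kept at 37 °C and 5% CO2 without further treatment, in medium that held insulin (5 µg/mL), EGF (10 ng/mL) and 10% FBS. Each *KD* line was grown from a single colony and is therefore 1 clone. A line put through nucleofection and cloning without a *Vangl2* guide was not analysed here, so editing and clonal origin cannot be told apart. The labels number the cultures of a line without saying what separates them, and the p-values therefore measure only the spread between these cultures.

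Tight junctions form a belt near the apical surface of an epithelium. Claudin strands close the gap between cells, some claudins making it tighter and others letting selected ions through, while occludin and JAM-A sit beside the strands and ZO-1 ties the complex to actin. In the mammary gland the belt keeps milk apart from the tissue fluid once secretion begins. Snail and ZEB proteins are repressors that bind E-boxes in the promoters of epithelial junction genes, and grainyhead-like factors are activators of the same kind of gene.

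The starts of *Cldn4*, *Cldn3*, *Ocln* and *Cldn1*, the 4 genes with the largest rises in *KD1*, are printed with the E-box bound by Snail and ZEB (CACCTG on either strand) in capitals. Each stretch is the RefSeq promoter of GRCm38.p6, from 250 bases before to 50 bases after the start, read along the gene. *Cldn4* is at chr5:134946885-134947184 on the minus strand, *Cldn3* at chr5:134985964-134986263 on the plus strand, *Ocln* at chr13:100552669-100552968 on the minus strand (the first of 2 listed starts), and *Cldn1* at chr16:26371790-26372089 on the minus strand.
Cldn4: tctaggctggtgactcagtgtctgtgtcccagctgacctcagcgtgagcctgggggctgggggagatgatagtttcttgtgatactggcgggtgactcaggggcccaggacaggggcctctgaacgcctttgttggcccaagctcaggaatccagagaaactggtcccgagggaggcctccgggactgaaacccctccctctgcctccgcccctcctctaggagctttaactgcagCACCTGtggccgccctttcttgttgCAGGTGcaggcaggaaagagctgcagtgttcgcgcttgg
Cldn3: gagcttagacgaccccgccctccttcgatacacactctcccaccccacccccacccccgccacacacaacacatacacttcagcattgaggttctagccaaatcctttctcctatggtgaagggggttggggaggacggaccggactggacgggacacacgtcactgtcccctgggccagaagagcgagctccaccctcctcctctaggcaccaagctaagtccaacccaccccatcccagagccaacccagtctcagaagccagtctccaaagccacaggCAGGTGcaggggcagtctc
Ocln: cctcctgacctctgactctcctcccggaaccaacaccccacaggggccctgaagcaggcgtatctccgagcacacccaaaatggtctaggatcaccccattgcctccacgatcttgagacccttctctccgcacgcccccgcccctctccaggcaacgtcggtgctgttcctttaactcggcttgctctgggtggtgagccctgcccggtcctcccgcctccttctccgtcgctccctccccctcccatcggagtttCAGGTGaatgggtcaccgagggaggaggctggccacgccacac
Cldn1: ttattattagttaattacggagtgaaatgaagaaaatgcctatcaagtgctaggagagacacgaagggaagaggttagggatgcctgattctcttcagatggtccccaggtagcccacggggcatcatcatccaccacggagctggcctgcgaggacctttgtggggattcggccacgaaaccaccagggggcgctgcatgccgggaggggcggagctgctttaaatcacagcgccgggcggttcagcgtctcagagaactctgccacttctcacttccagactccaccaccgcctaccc

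The *Cldn4* stretch held 2 E-boxes, whose first bases lie 14 bases before and 11 bases after the start. The *Cldn3* stretch held 1 E-box 31 bases after the start, the *Ocln* stretch 1 E-box 7 bases after it, and the *Cldn1* stretch held none. RefSeq promoters were matched for all 9 genes, 13 windows in all, and 6 of the 9 genes (*Cldn3*, *Cldn4*, *Cldn6*, *Cldn7*, *Ocln* and *F11r*) had an E-box in at least 1 window. Counted by window, 7 of the 13 held it, beside 20.2% of 32851 mouse promoters of the same length. The 13 windows are not all separate stretches. The 2 *Ocln* windows overlap, and the E-box 7 bases after the first start is also the one 213 bases before the second. The 3 *Cldn12* windows, which held no E-box, overlap as well. The grainyhead letters AACCNGTT were in 2.09% of promoters and in 0 of the 13 windows, which says only that these letters are not there.

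Between 19231428 and 28360592 reads per culture were counted on genes. Levels are given as CPM, which are counts scaled by TMM to a common library size, and 3 counts, the least that was taken as detection, came to between 0.0999 and 0.154 CPM in these libraries. This floor covers counting error only. Replicates were compared by chi-square over all genes, and the value per degree of freedom was 1.37 to 3.38 for most pairs, but 17.4 and 22.1 for *KD2* replicate 3 and 10.7 and 13.1 for *WT* replicate 1 against the other cultures of their lines. In *KD2* replicate 3 the short genes were higher, and the long genes lower, than in the other *KD2* cultures (median log2 difference 0.08 in the shortest 25% and -0.12 in the longest 25% of 15076 genes). In that culture *Cldn3* was 0.45 and *Cldn4* 0.32 higher on the log2 scale than in the other *KD2* cultures, and *Tjp1* differed by -0.30 and *Cldn12* by -0.26. The part of transcript length in these differences was not tested. Without *WT* replicate 1 no call of the 8 tested genes changed. Without *KD2* replicate 3 the call of *Cldn4* in *KD2* changed, and the values without it are given with the results in *KD2*.

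The RNA of the targeted gene gives a weak check of the labels, and of 1 line only. *Vangl2* had 66, 99 and 86 counts in *WT*, 75, 48 and 69 in *KD1* and 90, 118 and 90 in *KD2*. Its level fell in *KD1* (log2 fold change -0.63, SE 0.171, adjusted p = 0.0058) and in *KD2* its difference from *WT* did not pass the test (0.05, SE 0.162, adjusted p = 0.81). The RNA therefore does not check the label of the libraries called *KD2*. For *KD1* the check is weak, because 30.0% of all genes were lower there. By immunoblot the study found almost no VANGL2 protein in *KD1* and strongly reduced protein in *KD2*.

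**Figure D1:**
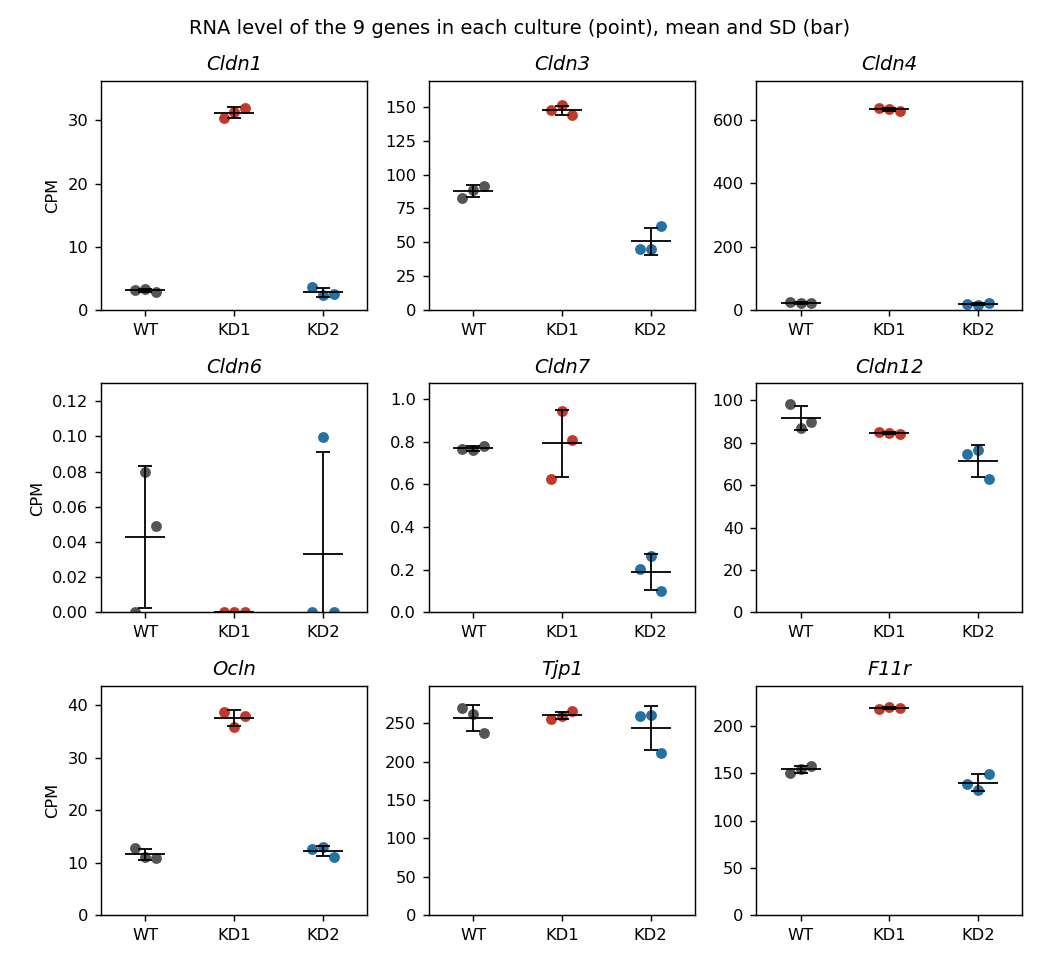
Each point is 1 culture, with CPM on a linear axis that starts at 0 and differs between panels, the horizontal bar is the mean of the 3 cultures and the whiskers are the SD. *Cldn1*, *Cldn3*, *Cldn4*, *Ocln* and *F11r* stand highest in *KD1*, *Cldn7* is lowest in *KD2*, and all *Cldn6* cultures lie at or under 3 counts.

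What *WT* cells expressed comes first, because it sets the scale for the rest. Levels of different genes are compared here per length, as CPM per kb of annotated exon. *Cldn3*, a barrier-forming claudin, stood highest in *WT* at 69.6 ± 3.58 CPM per kb (SD, n = 3). *F11r* followed at 57.9 ± 1.29, *Tjp1* at 32.9 ± 2.15, *Cldn12* at 21.7 ± 1.37 and *Cldn4* at 12.1 ± 1.04. *Ocln* (2.74 ± 0.252), *Cldn1* (0.646 ± 0.0462) and *Cldn7* (0.395 ± 0.00549) were far below these, and *Cldn6* was at 0.0250 ± 0.0234. In *WT* the 3 cultures of each gene were separate from those of the next gene in this order.

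The order was different in each edited line. In *KD1* it was led by *Cldn4* at 348 ± 2.76 CPM per kb, then *Cldn3* at 117 ± 2.82, *F11r* at 82.3 ± 0.361 and *Tjp1* at 33.3 ± 0.624. In *KD2* it was led by *F11r* at 52.6 ± 3.28, ahead of *Cldn3* at 40.3 ± 7.74, *Tjp1* at 31.2 ± 3.64, *Cldn12* at 16.9 ± 1.77 and *Cldn4* at 10.5 ± 1.47. Neighbours in these orders did not overlap across cultures, except *Cldn7* and *Cldn6* at the bottom of *KD2*. The ranks were the same with the length of the longest transcript in place of the exon total.

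*Cldn4* changed more than any other of the 8 genes in *KD1*. Claudin-4 is a sealing claudin of many glandular epithelia and a receptor for a clostridial toxin. *Cldn4* (ENSMUSG00000047501) is a gene of a single exon of 1816 bases, on chromosome 5 of GRCm38 (minus strand, 134945119 to 134946934). The *KD1* libraries held 17272, 16096 and 15562 of its reads, the *WT* libraries 471, 512 and 440, and the *KD2* libraries 441, 519 and 450. In CPM these were 24.1, 20.5 and 21.5 in *WT*, 638, 633 and 628 in *KD1*, and 17.8, 17.3 and 22.1 in *KD2*. Every *KD1* culture stood far above every other culture, whereas *WT* and *KD2* overlapped. The rise in *KD1* was 28.8-fold (log2 fold change 4.85, SE 0.094, adjusted p = 6.3e-14), and *KD2* was 33.3-fold lower than *KD1* (log2 -5.06, SE 0.0949, adjusted p = 2.3e-14). Between *KD2* and *WT* the log2 difference was -0.21 (SE 0.0924, adjusted p = 0.056). That difference passed the test once *KD2* replicate 3 was left out (-0.30, adjusted p = 0.00058). The 1041 genes tested on chromosome 5 had a median log2 fold change of -0.20 in *KD2* against *WT*.

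*Cldn3*, the neighbour of *Cldn4*, moved in opposite directions in the 2 lines. Claudin-3 is another sealing claudin, and its gene (ENSMUSG00000070473) is a single exon on the plus strand of chromosome 5, from 134986214 to 134987472, 39.3 kb from *Cldn4*. Of its exon bases, 3.18% are shared with *Wbscr25* on the opposite strand, and reads there cannot be told apart without a strand-specific count. Its level was 82.7, 88.8 and 91.4 CPM in *WT*, 147, 151 and 144 CPM in *KD1*, and 45.3, 44.9 and 62.0 CPM in *KD2*. No culture of a line overlapped with one of another line. *Cldn3* rose 1.68-fold in *KD1* (log2 0.75, SE 0.0992, adjusted p = 1.8e-05) and fell in *KD2* (log2 -0.79, SE 0.102, adjusted p = 1e-05). The fall was larger, at -0.93, without *KD2* replicate 3, which had the highest *Cldn3* level of its line. The lines differed from each other 2.92-fold (log2 -1.55, SE 0.102, adjusted p = 9.6e-09).

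*Cldn1* was low in *WT* and rose in *KD1* alone of the 2 lines. Claudin-1 is the claudin without which the barrier of the skin fails. Its gene (ENSMUSG00000022512) lies on the minus strand of chromosome 16, from 26356642 to 26371841. Counts were 62, 83 and 59 in *WT*, 824, 795 and 794 in *KD1*, and 89, 70 and 50 in *KD2*. The *KD1* cultures, at 30.4, 31.3 and 32.0 CPM, were all above the *WT* cultures at 3.18, 3.32 and 2.88 CPM and the *KD2* cultures at 3.60, 2.33 and 2.46 CPM, which overlapped with each other. The rise was 9.95-fold (log2 3.31, SE 0.125, adjusted p = 3.3e-11). In *KD2* the log2 difference from *WT* was -0.17, with a 95% interval of -0.52 to 0.18 (adjusted p = 0.37), and without *KD2* replicate 1 it was -0.39 (adjusted p = 0.028). The difference between the lines was -3.48 on the log2 scale (SE 0.124, adjusted p = 1.2e-11).

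*Cldn7*, *Cldn12* and *Cldn6* did not rise in either line. *Cldn7* encodes a claudin that also lies along the basolateral membrane and binds EpCAM. It was near the limit of detection, with 15, 19 and 16 counts in *WT*, 17, 24 and 20 in *KD1*, and 5, 8 and 2 in *KD2*. The *KD2* cultures were the lowest and did not overlap with the others. *Cldn7* fell by 1.92 on the log2 scale in *KD2* (SE 0.350, adjusted p = 0.00024), or by 1.65 without *KD2* replicate 3. In *KD1* its log2 difference from *WT* was 0.04, and the 95% interval of -0.53 to 0.61 leaves room for a change in either direction at this depth. It differed between the lines by -1.96 (SE 0.338, adjusted p = 0.00014).

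*Cldn12*, an atypical claudin without the usual PDZ-binding tail, had 98.1, 86.9 and 89.9 CPM in *WT*, 85.2, 84.4 and 84.1 CPM in *KD1*, and 74.8, 76.5 and 62.8 CPM in *KD2*. The 3 lines did not overlap, with *WT* on top. It fell by 0.36 on the log2 scale in *KD2* (SE 0.0758, adjusted p = 0.00083), and its difference in *KD1* was -0.12 (SE 0.0754, adjusted p = 0.21). *KD2* was also below *KD1* (log2 -0.24, adjusted p = 0.011). With libraries scaled by total counts alone this last difference was -0.12 (adjusted p = 0.18). The 1041 genes tested on chromosome 5, where *Cldn12* lies, had median log2 fold changes of -0.20 in *KD2* and -0.28 between the lines. Without *KD2* replicate 3, which had the lowest *Cldn12* level, the fall in *KD2* was 0.25 and the difference between the lines -0.15 (adjusted p = 0.00031 and 0.011). *Cldn6*, a claudin of embryonic epithelium, had 0, 2 and 1 counts in *WT*, 0 in each *KD1* culture, and 0, 3 and 0 in *KD2*. Every culture was at or below the floor of 3 counts and no fold change is given.

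*Ocln* rose in *KD1*, as *Cldn1*, *Cldn3* and *Cldn4* did. Occludin is a membrane protein of the junction that is unrelated to the claudins in sequence. The gene (ENSMUSG00000021638) lies on the minus strand of chromosome 13, from 100496507 to 100552718. Its level was 12.8, 11.1 and 10.8 CPM in *WT*, 38.8, 35.9 and 38.0 CPM in *KD1*, and 12.7, 12.98 and 11.1 CPM in *KD2*. The *KD1* cultures stood apart, and *WT* and *KD2* overlapped. The rise in *KD1* was 3.25-fold (log2 1.70, SE 0.085, adjusted p = 7.4e-10), and *KD2* lay 3.05-fold below *KD1* (log2 -1.61, SE 0.0832, adjusted p = 7.4e-10). For *KD2* against *WT* the log2 difference was 0.09, with a 95% interval of -0.11 to 0.29 (adjusted p = 0.41).

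*F11r* encodes JAM-A, an immunoglobulin-like adhesion protein that helps to place the junction. It had 151, 154 and 158 CPM in *WT*, 218, 220 and 219 CPM in *KD1*, and 139, 132 and 150 CPM in *KD2*. Again *KD1* was highest, and the highest *KD2* culture lay just under the lowest *WT* culture. *F11r* rose 1.42-fold in *KD1* (log2 0.51, SE 0.0572, adjusted p = 4e-06) and was lower in *KD2* than in *KD1* (log2 -0.65, SE 0.0573, adjusted p = 2.2e-07). Its difference from *WT* in *KD2* was -0.14 (SE 0.0575, adjusted p = 0.046). That call was lost under 12 of 16 alternative settings, including the removal of any 1 of 7 cultures (*WT* replicates 2 and 3, each *KD1* culture, and *KD2* replicates 1 and 2, with adjusted p from 0.067 to 0.22). *F11r* also lies on the chromosome of the targeted gene, 536 kb from *Vangl2*. The 35 other genes tested within 1 Mb of *F11r* had a median log2 fold change of -0.06 in *KD1*, and 7 of them were higher. The share of all genes higher in *KD1* was 26.9%.

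*Tjp1* passed the test in no comparison. ZO-1, its product, is the scaffold on which claudin strands are assembled. The level was 270, 263 and 238 CPM in *WT*, 256, 259 and 266 CPM in *KD1*, and 260, 261 and 211 CPM in *KD2*, with the groups overlapping throughout. The log2 difference from *WT* was 0.02 in *KD1* (95% interval -0.15 to 0.19, adjusted p = 0.85) and -0.07 in *KD2* (-0.24 to 0.10, adjusted p = 0.43). The *KD2* value rests on replicate 3 and is 0.05 without it. Between the lines the difference was -0.09 (-0.26 to 0.08, adjusted p = 0.31). These intervals leave out changes as large as those of *Cldn3* or *Ocln* in *KD1*.

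**Figure D2:**
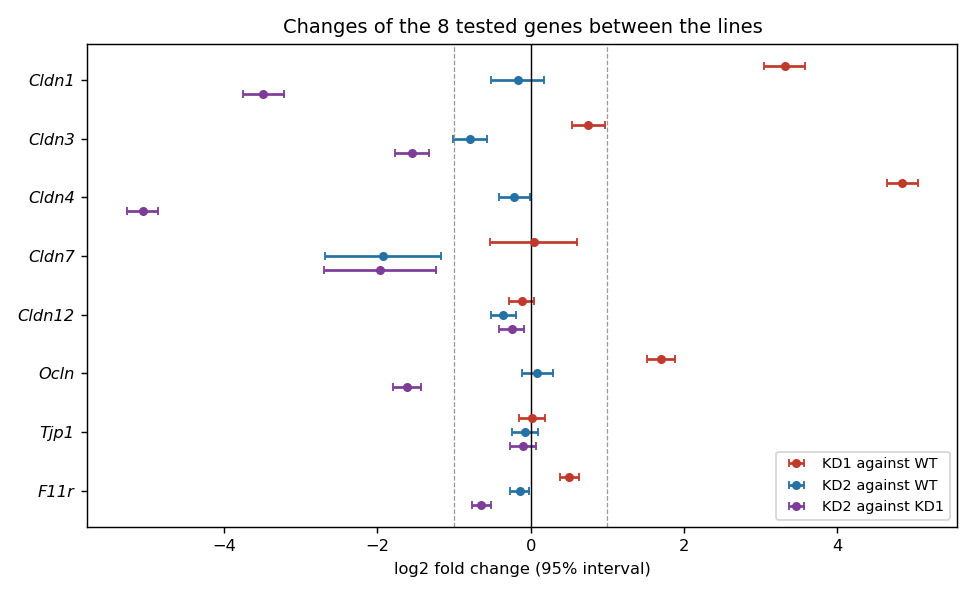
Points are log2 fold changes of the 8 tested genes from edgeR's quasi-likelihood fit of all 9 cultures, bars are 95% intervals, and dashed lines mark a 2-fold change. *Cldn1*, *Cldn4* and *Ocln* lie beyond 2-fold in *KD1* (3.31, 4.85 and 1.70), *Cldn7* is the gene beyond it in *KD2* (-1.92), and the 3 *Tjp1* intervals include 0.

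Counted together, 5 of the 8 tested genes were higher and 0 lower in *KD1* than in *WT* by edgeR's quasi-likelihood test at an adjusted p under 0.05. Over all 15253 genes, 56.9% passed in that comparison, 26.9% as higher and 30.0% as lower. *Cldn1*, *Cldn4* and *Ocln* were also more than 2-fold higher, beside 9.34% of all genes. In *KD2* 0 of the 8 were higher and 4 lower (*Cldn3*, *Cldn7*, *Cldn12* and *F11r*), where 67.2% of all genes passed, 34.0% as higher and 33.3% as lower. *Cldn7* was the gene more than 2-fold lower, beside 6.71% of all genes. With *KD2* replicate 3 left out, 5 of the 8 were lower in *KD2*, *Cldn4* being the addition, and their counts in *KD1* were as before. The calls over all genes rose as well, from 10254 to 11098 in *KD2* and from 8686 to 10077 in *KD1*. Without *WT* replicate 1 the counts of the 8 genes were the same as in the main fit.

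The test of *KD2* against *KD1* asks whether the 2 lines differ. Here 0 genes were higher in *KD2* and 7 of the 8 lower, all except *Tjp1*, against 34.8% and 33.0% of all genes (67.8% together). *Cldn1*, *Cldn3*, *Cldn4*, *Cldn7* and *Ocln* were more than 2-fold lower, beside 8.58% of all genes. The median log2 fold change of the 8 genes was 0.63 in *KD1*, -0.19 in *KD2* and -1.58 between the lines, with medians over all genes of -0.03, 0.01 and 0.02. The 2 comparisons with *WT* share their *WT* cultures. Without *KD2* replicate 3, *Cldn1* was at -0.08 (adjusted p = 0.68), *Ocln* at 0.18 (adjusted p = 0.066) and *F11r* at -0.16 (adjusted p = 0.0023) in *KD2* against *WT*. Between the lines the differences were then -5.17 for *Cldn4*, -3.41 for *Cldn1*, -1.71 for *Cldn7*, -1.70 for *Cldn3*, -1.54 for *Ocln* and -0.69 for *F11r*, while *Tjp1* was at 0.01 (adjusted p = 0.90).

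The make-up of the claudin pool was described over all 23 claudins of the table. Of these, 9 were tested and 13 had at most 3 counts in every culture. Their summed level was 106.9 ± 1.67 CPM per kb (SD, n = 3) in *WT*, 498 ± 4.70 in *KD1* and 73.6 ± 7.69 in *KD2*. *KD1* thus held 4.65 times as much claudin RNA per kb as *WT*, and *KD2* 0.689 times as much. *Cldn3* made up 65.1 ± 2.57% of the pool in *WT* and 54.4 ± 4.57% in *KD2*, but 23.6 ± 0.393% in *KD1*. *Cldn4* made up 11.3 ± 1.06% in *WT*, 14.2 ± 0.484% in *KD2* and 70.0 ± 0.315% in *KD1*. *Cldn12* was at 20.3 ± 1.46% in *WT*, 23.2 ± 4.56% in *KD2* and 4.02 ± 0.0258% in *KD1*. *WT* and *KD2* cells were thus mostly *Cldn3* and *Cldn12* by RNA, and *KD1* cells mostly *Cldn4*. Within *KD2*, replicate 3 stood apart, with *Cldn12* at 25.4, 26.3 and 18.00% and *Cldn3* at 51.6, 51.9 and 59.7% of the pool in replicates 1, 2 and 3. Its summed level was 82.5 CPM per kb, beside 69.7 and 68.7 in the other cultures. Shares depend on each other, and the smaller share of *Cldn3* in *KD1* stands beside a rise of its own level.

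**Figure D3:**
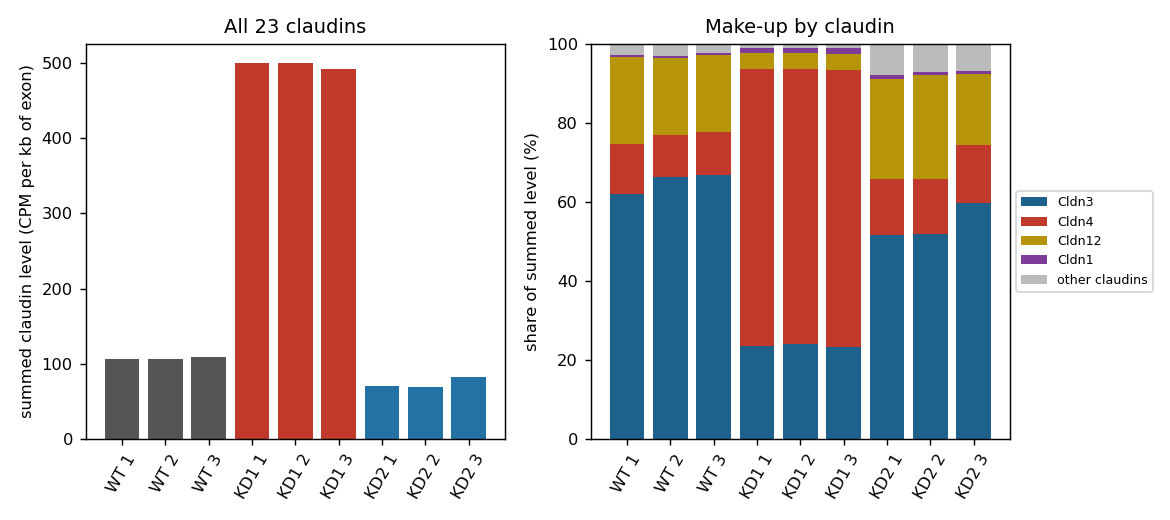
Left, the summed level of 23 claudins in each culture (CPM per kb of exon, linear axis from 0). Right, the percentage of that sum taken by *Cldn3*, *Cldn4*, *Cldn12*, *Cldn1* and all other claudins. The 3 *KD1* bars average 498 and are mostly *Cldn4*, and the bars of the other lines are mostly *Cldn3*.

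Among claudins outside the 9, 17 were in the table and 4 were tested. *Cldn23* rose in both lines. From a *WT* level of 2.06 ± 0.218 CPM (SD, n = 3) it went to 7.53 ± 0.292 CPM in *KD1* (log2 1.86, SE 0.142, adjusted p = 7.2e-08) and 3.28 ± 0.459 CPM in *KD2* (log2 0.65, SE 0.156, adjusted p = 0.0022). *Cldn9* and *Cldn20* rose in *KD2*. *Cldn9* had 4, 3 and 3 counts in *WT*, 1, 1 and 2 in *KD1*, and 42, 41 and 47 in *KD2* (adjusted p = 9.5e-07 against *WT*). It passed the filter on low counts only through *KD2*, where it is high, so the filter favoured its rise there. The ratio of its summed, scaled counts in *KD2* to those in *WT* was 11.3, with an exact 95% counting interval of 5.93 to 24.02. *Cldn20* rose by 1.17 on the log2 scale in *KD2* (SE 0.317, adjusted p = 0.0048), from 32 to 84 counts over 3 cultures. *Cldn15* passed the test in neither line.

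The other membrane proteins of the junction numbered 11, of which 7 were tested. In *KD1* 3 were higher and 1 lower, and in *KD2* 0 were higher and 5 lower. The shares of all genes, here and for each list below, were 26.9% higher and 30.0% lower in *KD1*. In *KD2* they were 34.0% and 33.3%. *Jam2*, a relative of *F11r* found mainly in endothelium, had 13, 10 and 12 counts in *WT*, 222, 193 and 201 in *KD1*, and 12, 15 and 9 in *KD2*. It rose in *KD1* (log2 3.87, SE 0.176, adjusted p = 2.6e-10) and did not pass the test in *KD2* (-0.17, SE 0.274, adjusted p = 0.68). *Marveld3*, which like *Ocln* belongs to the MARVEL family, rose in *KD1* (0.67, SE 0.127, adjusted p = 0.00042) and fell in *KD2* (-1.46, SE 0.153, adjusted p = 1.5e-06).

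All 18 genes of the plaque beneath the membrane were tested. In *KD1* 6 were higher and 9 lower, and in *KD2* 8 were higher and 4 lower. *Tjp3*, which encodes the ZO-1 relative ZO-3, had 0.722 ± 0.285 CPM (SD, n = 3) in *WT* and rose to 4.89 ± 0.658 CPM in *KD1* (log2 2.75, adjusted p = 1.1e-07) and 1.45 ± 0.0451 in *KD2* (1.00, adjusted p = 0.0037). *Cgn* (cingulin, which links the junction to the cytoskeleton) rose by 1.21 in *KD1* (SE 0.076, adjusted p = 9e-09). Its relative *Cgnl1* (paracingulin) rose in *KD2* instead, from 83.5 ± 3.29 to 250.2 ± 8.39 CPM (log2 1.58, SE 0.056, adjusted p = 4.4e-11), and was -0.01 in *KD1*, a value whose sign turned under 7 of the 16 alternatives. *Magi2*, a scaffold with several PDZ domains, fell in *KD1* (-1.24, SE 0.217, adjusted p = 0.00022).

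Of 10 genes of the apical polarity complexes, which place the junction along the side of the cell, 4 were higher and 5 lower in *KD1*, and 1 was higher and 8 lower in *KD2*. *Pard3b* fell from 123, 116 and 102 counts in *WT* to 10, 5 and 6 in *KD1* (log2 -4.26, SE 0.243, adjusted p = 3e-09) and had 87, 119 and 64 in *KD2* (-0.57, adjusted p = 0.0064). *Pard6a* fell in both lines (-1.28 and -0.84, adjusted p = 1.9e-07 and 7.6e-06). *Pard6g*, its paralogue, rose in *KD1* (1.21, adjusted p = 1.9e-09) and fell in *KD2* (-0.39, adjusted p = 0.00026).

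Membrane proteins and proteases that act on claudins made up 6 genes, of which 4 were higher and 0 lower in *KD1*, and 1 was higher and 4 lower in *KD2*. *Epcam*, whose product binds claudin-7 and keeps it from being degraded, rose in *KD1* (0.31, SE 0.074, adjusted p = 0.0029) and fell in *KD2* (-0.36, SE 0.074, adjusted p = 0.00064). Across all 6 lists beside the 9 genes, 60 of 78 genes were tested, 15 of them transcription factors described below rather than parts of the junction. In *KD1* 22 rose and 23 fell, and in *KD2* 17 rose and 31 fell, with median log2 fold changes of -0.04 and -0.36. The transcription factors gave 4 of the 17 rises and 10 of the 31 falls in *KD2*. Over all genes tested 26.9% rose and 30.0% fell in *KD1*, and 34.0% and 33.3% did in *KD2*. The medians over all genes were -0.03 and 0.01.

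**Figure D4:**
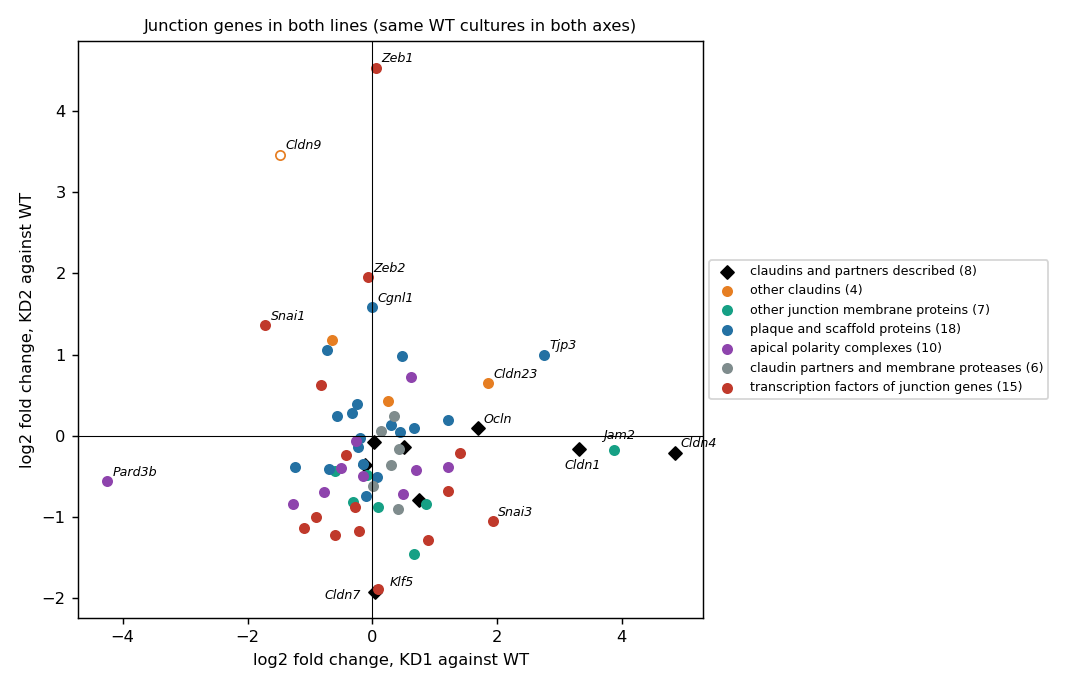
Each point is a tested junction gene or a transcription factor listed as acting on such genes. Its log2 fold change against *WT* is shown in *KD1* (x axis) and in *KD2* (y axis), coloured by list with the number tested in brackets. The open point, *Cldn9*, had at most 2 counts per *KD1* culture and passed the filter on low counts only through *KD2*. *Cldn1*, *Cldn4* and *Jam2* lie far to the right near 0 on the y axis, and *Zeb1* (4.54) is highest on the y axis.

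All 15 transcription factors listed as acting on junction genes were tested. In *KD1* 4 were higher and 8 lower, and in *KD2* 4 were higher and 10 lower. The shares of all genes were 26.9% higher and 30.0% lower in *KD1*, and 34.0% and 33.3% in *KD2*. *Zeb1*, a repressor of epithelial genes, had 25, 33 and 24 counts in *WT* and 32, 33 and 36 in *KD1*, which overlapped, and 749, 955 and 530 in *KD2*. Its rise in *KD2* was 4.54 on the log2 scale (SE 0.128, adjusted p = 4.6e-12), and its difference in *KD1* was 0.05 (SE 0.192, adjusted p = 0.86). *Zeb2*, its paralogue, also rose in *KD2* (1.96, SE 0.127, adjusted p = 1.3e-08) and was at -0.07 in *KD1* (adjusted p = 0.69).

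*Klf5* and *Grhl2*, which activate epithelial genes, were lower in *KD2*. *Klf5* fell there from 96.5 ± 3.00 to 25.9 ± 2.11 CPM (log2 -1.89, SE 0.069, adjusted p = 5e-11), and *Grhl2*, a grainyhead-like activator known to act on claudin genes, fell from 101.6 ± 2.21 to 45.0 ± 0.699 CPM (-1.18, SE 0.055, adjusted p = 5.1e-10). In *KD1* *Klf5* was at 0.10 (adjusted p = 0.22) and *Grhl2* at -0.21 (adjusted p = 0.0034). *Snai2*, a Snail-family repressor, fell in both lines, by 0.28 and 0.88 (adjusted p = 0.0097 and 4.9e-07), although the call in *KD1* was lost without *WT* replicate 3 (adjusted p = 0.076). *Snai1*, named after its values were seen, moved in opposite directions in the 2 lines. It had 156, 366 and 248 counts in *WT*, 89, 91 and 94 in *KD1* and 685, 792 and 746 in *KD2*, and fell in *KD1* (-1.72, SE 0.209, adjusted p = 8.4e-06) and rose in *KD2* (1.37, SE 0.170, adjusted p = 7.8e-06). *Snai3* rose in *KD1* (1.93, adjusted p = 2.7e-07) and fell in *KD2* (-1.05, adjusted p = 0.00063). *Grhl3*, *Grhl1*, *Elf3* and *Twist1* were also named after their values were seen. *Grhl3*, another grainyhead-like factor, rose in *KD1* (1.22, adjusted p = 1.5e-08) and fell in *KD2* (-0.69, adjusted p = 1.2e-05). Its relative *Grhl1* fell in both lines (-0.90 in *KD1*, adjusted p = 7.2e-08). *Elf3* rose in *KD1* (1.41, adjusted p = 1.1e-08) and did not pass the test in *KD2* (-0.22). *Twist1* fell in both lines (-0.59 and -1.23, adjusted p = 0.0019 and 4.1e-06). The part of these factors in the claudin differences was not tested.

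Markers of the cell type were read beside these results. The summed level of 8 epithelial markers ranged in *WT* from 5356 to 5872 CPM, in *KD1* from 5775 to 5921 CPM and in *KD2* from 3080 to 3759 CPM, and 1 of them, *Krt19*, was at 0 in every culture. The 8 fibroblast markers ranged in *WT* from 17.0 to 23.04 CPM, in *KD1* from 8.07 to 10.1 CPM and in *KD2* from 90.1 to 99.9 CPM when summed, with *Lum* and *Thy1* at no more than 3 counts everywhere. In *KD1* 4 of the 5 fibroblast markers tested were lower and 0 higher, beside 30.0% and 26.9% of all genes. The 6 endothelial markers summed to between 1.43 and 5.50 CPM in all cultures, and the sum was highest in *KD1*. *Pecam1*, at 4.91 ± 0.288 CPM, made up most of it there. *Cdh5* and *Tek* were highest in *KD2* instead. *Cdh5* had 1, 17 and 53 counts over the cultures of *WT*, *KD1* and *KD2*, and *Tek* 2, 2 and 17. *Kdr*, *Cldn5* and *Emcn* had no more than 3 counts everywhere. Members of a list did not move alike in *KD2*, where 4 of the 8 junction genes were lower. The shares of all genes there were 34.0% higher and 33.3% lower. Of the 7 epithelial markers tested, 5 were lower and *Krt8* was higher (0.76, adjusted p = 7.4e-06). Of the 5 fibroblast markers tested, 3 were higher and *Col1a1* was lower (-0.71, adjusted p = 0.0019), and *Pdgfrb* alone, at 66.8 ± 5.02 CPM (SD, n = 3), made up most of their sum. These markers were named after their values were seen, and their part in the lower junction genes was not tested. In bulk RNA, fewer cells of a type and less RNA per cell cannot be told apart.

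The surroundings of the genes differed between *Cldn1* and *Cldn4*. Of the genes within 1 Mb of *Cldn1*, 7 were tested, and all 7 were higher in *KD1*, 5 of them more than 2-fold. Their median log2 fold change was 1.65, against 0.02 for the 469 genes tested on chromosome 16. Over all genes 26.9% were higher in *KD1* and 9.34% more than 2-fold higher. Among the 7 were genes near or below the floor of 3 counts in *WT*, with means of 0.0341 and 0.211 CPM. They passed the filter on low counts through *KD1*, where they are high, so the filter favoured their being higher there. The median of 1.65 is the value of the second of them. The 3 of the 7 named here were chosen after their values were seen. *P3h2*, which encodes a collagen prolyl hydroxylase and starts 266 kb from *Cldn1*, rose from 42.3 ± 1.82 to 293 ± 5.32 CPM (SD, n = 3, log2 2.79, adjusted p = 1.5e-13). *Trp63*, a transcription factor of basal epithelial cells, rose from 196 ± 9.22 to 325 ± 9.79 CPM (log2 0.73, adjusted p = 3.6e-07). *Il1rap*, a subunit of the interleukin-1 receptor, rose from 267 ± 5.17 to 322 ± 5.72 CPM (log2 0.27, adjusted p = 0.0031). In *KD2* 3 of these 7 genes were higher, beside 34.0% of all genes, with a median of 0.22.

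Around *Cldn4* there was no such pattern. The 37 genes tested within 1 Mb of it had a median log2 fold change of -0.06 in *KD1*, and 14 were higher, 3 of them more than 2-fold. The highest value among them was 2.46, below the 4.85 of *Cldn4*. Over all genes 26.9% were higher in *KD1* and 9.34% more than 2-fold higher. Around *Ocln* the median of 21 genes was 0.06 in *KD1* and -0.69 in *KD2*, with -0.66 for all genes tested on chromosome 13 in *KD2*. *Ocln* itself was at 0.09 in *KD2*.

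**Figure D5:**
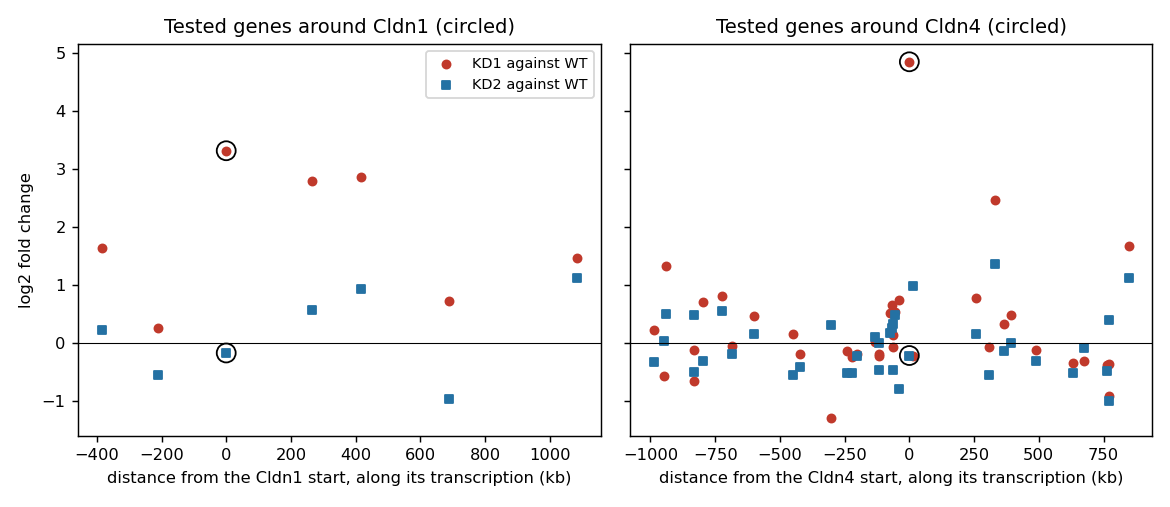
Each point is a tested gene around *Cldn1* (left) or *Cldn4* (right), placed by the distance of its start in kb along the transcription of the circled gene, with its log2 fold change in *KD1* (circles) and *KD2* (squares). Of 7 neighbours of *Cldn1*, 6 are drawn, the other having a mean below 3 counts in a group. The *KD1* points around *Cldn1* all lie above 0, including a gene that passed the filter on low counts through *KD1*. Those around *Cldn4* lie on both sides of 0.

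For each of the 8 tested genes, the other genes whose pattern over the 9 cultures was most like it were found by the root mean square difference of log2 CPM, each gene being centred on its own mean. *Cldn1* was closest to the cytokine gene *Lif* (0.18), in a pattern that spans 3.73 log2 units. Its next match, *Stfa2*, and both matches of *Cldn4*, *Bcl2l14* and *Gm6637*, had 0 counts in every *WT* and *KD2* culture and at most 21, 62 and 92 in *KD1*, so the prior count added before the log sets their likeness. *Cldn3* was closest to the glucose transporter *Slc2a1* (0.09) and *Pim3* (0.12), *Ocln* to *Man1a* (0.10) and *AU018091* (0.10), and *F11r* to the lipid-binding *Fabp5* (0.04) and *Rfc3* (0.05). The flatter patterns of *Cldn12* and *Tjp1* were closest to *Nr1d2* and *Trnt1* and to *Smchd1* and *Dcaf1* (0.03 to 0.04). *Cldn7* was closest to *Tasor* and *Slc7a11* (both 0.18). None of the closest pairs held another of the 9 genes.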

How the data were processed

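RNA-seq of 9 HC11 cultures, 3 each of *WT*, *KD1* and *KD2*, was analysed. The authors used fastp for trimming, HISAT2 for mapping to GRCm38 and featureCounts for counting over exons, and deposited whole-number counts per gene without normalization for 55228 genes. Strand and multimapping settings of the counting are not given in the sources used here. The labels state that lysates were flash frozen and the methods that they were not.

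Groups and replicate numbers came from the labels, and 0 columns were left without a culture. Counts were tested with edgeR 4.0.16 in R 4.3.3 (quasi-likelihood test, TMM scaling, filterByExpr with a minimum count of 10, all 9 cultures in 1 fit, no block). Benjamini-Hochberg adjustment ran over the 15253 genes tested. The threshold was an adjusted p of 0.05, and a gene counted as more than 2-fold changed where the absolute log2 fold change was also above 1. The SE is the log2 fold change divided by the square root of F, and intervals are 95%. CPM are counts scaled by TMM to a common library size. The analysis was tested on simulated data with known changes.

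The 9 genes, the lists and the tests were chosen with earlier results of these data known, and the lists hold genes taken from general knowledge. Beside the 9 genes, the text names up to 4 genes per list with the largest changes beyond 2-fold against *WT*, *Grhl2*, *Snai2*, *Zeb1* and *Epcam* whatever their values, the 2 genes nearest in pattern to each of the 8 tested, and *Vangl2*. A few genes outside this rule are marked where they appear. Marker lists are given as sums, and 1 of them is not reported here.

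Positions and exon lengths came from GENCODE M21 on GRCm38, another release than the one used for counting, and 53569 of the gene names matched. Stretches of 50 bases in the exons of *F11r* recur in other genes for 0.868% of positions, and for 0% in the other 8 genes. The 16 alternatives were DESeq2 1.42.0, median-of-ratios (RLE) scaling, library size alone, no filter on low counts, at least 10 counts in every culture, only the 6 cultures compared, the replicate number as a block, and leaving out 1 of the 9 cultures at a time. For claudin shares, the longest transcript length was the alternative.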

Additional observations from a re-analysis of the deposited data

Results flagged for a closer look

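These results were picked out because *KD1* and *KD2* differed from each other in a direct test of *KD2* against *KD1* (edgeR's quasi-likelihood test on all 9 cultures, Benjamini-Hochberg adjusted p at or below 0.011), a test that 67.8% of all genes passed. Values are log2 fold changes of *KD2* against *KD1*, with 3 cultures in each line.

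Among the claudins and their partners, *Cldn4* differed by -5.06, *Cldn1* by -3.48, *Cldn7* by -1.96, *Ocln* by -1.61, *Cldn3* by -1.55, *F11r* by -0.65 and *Cldn12* by -0.24, so all 7 were lower in *KD2*. The genes tested on chromosome 5, where *Cldn12* lies, had a median of -0.28. *Cldn3* was above *WT* in *KD1* and below it in *KD2*. *Cldn1*, *Cldn4* and *Ocln* were above *WT* in *KD1*, with overlapping *WT* and *KD2* cultures.

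Of the other claudins, *Cldn9* differed by 4.95 and *Cldn20* by 1.83, and *Cldn23* by -1.21. *Cldn9* passed the filter on low counts only through *KD2*, where it is high. The fitted value of *Cldn9* depends on a prior count, because *KD1* had 4 counts in all against 130 in *KD2*, a scaled ratio of 33.5 with an exact 95% counting interval of 12.8 to 125. Of the other junction proteins, *Jam2* differed by -4.04, *Marveld3* by -2.13, *Tjp3* by -1.75, *Cgn* by -1.01 and *Epcam* by -0.67, while *Cgnl1* differed by 1.60 and *Magi2* by 0.86. Of the polarity genes, *Pard3b* differed by 3.69, *Pard6a* by 0.44 and *Pard6g* by -1.59.

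Of the transcription factors, *Zeb1* differed by 4.49 and *Zeb2* by 2.03, and *Snai3* by -2.98, *Klf5* by -1.99, *Grhl2* by -0.96 and *Snai2* by -0.61. *Vangl2*, the gene targeted in both lines, differed by 0.68.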

How the results depend on the processing

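Of the 24 tests of the 8 genes, 16 kept their direction and their side of the threshold under every alternative run, and of 381 values 359 did. With at least 10 counts in every culture, *Cldn7* drops out as *Cldn6* did, and *F11r* loses its call in *KD2*. Of the genes still tested, 2 were then lower in *KD2* and 0 more than 2-fold lower. Over all genes, 1319, 1698 and 1914 were more than 2-fold changed in *KD1*, in *KD2* and between the lines, instead of 2568, 3235 and 3556. This filter also takes genes with low counts out of the test.

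*F11r* in *KD2* lost its call under 12 alternatives (adjusted p from 0.058 to 0.67). *Cldn4* in *KD2* passed without a filter on low counts (-0.24, adjusted p = 0.011). *Tjp1* turned in *KD2* with library size alone (0.0369) and without *KD2* replicate 3 (0.047, leave-one-out range -0.1205 to 0.047), between the lines under the same settings (0.0327 and 0.0069), and in *KD1* without *WT* replicate 3 (-0.009). *Cldn7* in *KD1* turned without *KD1* replicate 2 (-0.10). None of these *Tjp1* and *Cldn7* values passed the test under any alternative. *Cgnl1* in *KD1* turned with DESeq2 and RLE scaling (0.0103 in each), under the stricter count filter (0.0231), with the 6 cultures compared alone (0.028), and without *WT* replicate 1, *WT* replicate 2 or *KD2* replicate 3 (leave-one-out range -0.0195 to 0.0143). *Zeb1* in *KD1* turned without *KD1* replicate 3 (range -0.02 to 0.1285), *Zeb2* in *KD1* without *WT* replicate 1 (range -0.1563 to 0.0019), and *Vangl2* in *KD2* without *WT* replicate 1 (range -0.0379 to 0.1344). *Cgn* in *KD2* (0.19, adjusted p = 0.045) lost its call under 8 alternatives, and *Klf5* in *KD1* passed under 2. The causes were not tested. Library size alone moved the median of all genes to 0.12 in *KD2* and 0.14 between the lines.

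With the longest transcript length, *Cldn4* and *Cldn1* made up 69.5% and 1.50% of the claudin pool in *KD1*, and *Cldn12* 22.2% in *WT* and 4.50% in *KD1*. The replicate number as a block left 5 of the 8 genes higher in *KD1* and 3 lower in *KD2*, the lost call being *F11r* (-0.14, adjusted p = 0.058). Deviations of same-numbered cultures had correlations of -0.065 to 0.079, and 4 of 9 cultures correlated best with their own number, so the numbers were not taken to pair the cultures.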
